A study of Mus musculus with 24 samples.

Results

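Gene expression in the frontal lobe of mice heterozygous for Arg1 was set against that of wild-type mice of the same age, within 1 labelled batch of arrays. The comparison takes the 6 arrays of the labelled batch 3 that carry the genotype labels HE (Arg1 heterozygous) and WT (wild type), out of 24 arrays in the series. Batch 3 is the only batch with both groups. It holds 3 HE and 3 WT mice, 1 array per mouse, all at postnatal day 14. It also holds 3 Arg1 knockouts (KO) and 3 knockouts given a viral treatment (TR) of the same age, which serve here for the spread between arrays and for levels side by side. The labels do not give the sex, litter or strain of an animal, the design of the Arg1 allele, or the virus.

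Arg1 encodes arginase 1, which carries out the final step of the urea cycle, the liver pathway that turns ammonia into urea. The enzyme splits arginine into ornithine and urea, and without it arginine builds up in blood. Deficiency of the enzyme is inherited as a recessive disorder, so that carriers of 1 defective copy are ordinarily healthy. A heterozygote is therefore often used as a control for the knockout, and setting it against the wild type asks whether loss of 1 copy alters the tissue by itself.

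Affymetrix mouse genome arrays were read as 1 deposited log2 level for each of 18057 Ensembl genes. The files and reference tables used here pair none of these IDs with a gene name, so genes are given by ID, no cell type markers could be read, and Arg1 itself could not be looked up. Medians of the 6 arrays lay between 6.74 and 6.77 log2, and correlations between pairs of them over all genes lay between 0.993 and 0.997. Nothing in the labels ties an HE mouse to a WT mouse, and p-values measure the spread between these mice only.

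In the model of all 12 arrays of batch 3, 1 gene rose in HE mice. ENSMUSG00000019987 had levels of 6.41, 6.83 and 6.89 log2 in the HE mice, against 4.31, 3.94 and 4.80 log2 in the WT mice. The lowest HE mouse stood well above the highest WT mouse, so the groups did not overlap. The means were 6.71 ± 0.261 log2 in HE and 4.35 ± 0.433 log2 in WT (SD, n = 3 each). The difference was 2.36 ± 0.198 log2 (SE), a 5.13-fold higher level in HE with a 95% interval of 1.94 to 2.78 log2. Its limma adjusted p (Benjamini-Hochberg over 18057 genes) was 0.000136. An exact two-sided permutation test over the 6 arrays gave p = 0.1, the smallest that 3 against 3 allows. Whether this is the gene whose allele distinguishes the groups could not be read from the files, and a level per gene does not show which part of a transcript was bound.

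The same gene was also high in the KO and TR mice. In batch 3 ENSMUSG00000019987 read 6.98, 6.87 and 7.40 log2 in KO and 7.22, 7.37 and 7.45 log2 in TR. The lowest KO value lay just under the highest HE value, and all TR values lay above every HE value. KO exceeded HE by 0.37 ± 0.198 log2 (SE, 95% interval -0.051 to 0.79), at an adjusted p of 0.524 in limma. TR exceeded HE by 0.64 ± 0.198 log2 (SE, 95% interval 0.21 to 1.06), at an adjusted p of 0.9998 in limma. The interval for TR minus HE lies above 0 and that for KO minus HE includes 0, and neither difference passed after adjustment over 18057 genes.

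**Figure D1:**
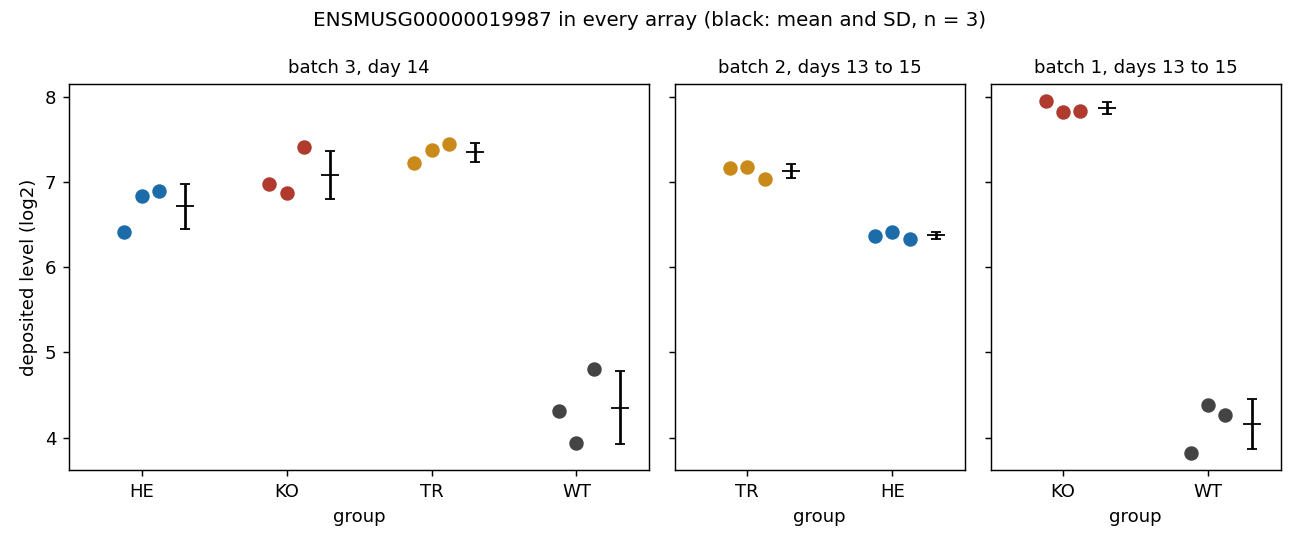
Deposited log2 level of ENSMUSG00000019987 (y axis) in every array, by group (x axis), with 1 panel for each batch; points are mice, and black marks give the mean and SD of 3. In batch 3 the HE mice lie between 6.41 and 6.89 and the WT mice between 3.94 and 4.80; levels of different batches are not directly comparable.

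A second set of genes parted the HE from the WT mice far more widely, and did so without regard to the Arg1 genotype of the other groups. Besides ENSMUSG00000019987, 6 genes had a gap of at least 1 log2 unit between all HE and all WT arrays, 2 of them higher and 4 lower in HE. This set was picked after its values were seen. ENSMUSG00000099312 had 9.55, 10.63 and 10.09 log2 in HE, against 3.90, 3.84 and 4.12 log2 in WT. ENSMUSG00000069045 ran the other way, with 2.61, 2.84 and 2.44 log2 in HE, against 8.83, 9.00 and 9.29 log2 in WT. Both read as a switch between a high and a low level, with no mouse in between. The differences were 6.13 log2 for ENSMUSG00000099312 and -6.41 log2 for ENSMUSG00000069045, about 70.2-fold higher and 85.0-fold lower in HE.

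The KO and TR mice of batch 3 fell on both sides of the same divide. ENSMUSG00000099312 read 10.04, 4.07 and 4.22 log2 in KO replicates 1 to 3 and 3.70, 4.15 and 9.80 log2 in TR replicates 1 to 3. ENSMUSG00000069045 read 2.77, 9.02 and 8.93 log2 in those KO mice and 8.80, 8.88 and 2.71 log2 in those TR mice. KO replicate 1 and TR replicate 3 thus resembled the HE mice, while the other 2 KO and 2 TR mice resembled the WT mice. The other 4 genes placed all 6 of these arrays on the same sides, and the gap over the 12 arrays was between 1.36 and 5.95 log2 across the 6 genes. The genes also switched inside the groups of batch 1, where WT replicate 5 carried the pattern of the HE mice of batch 3 and WT replicates 4 and 6 the opposite one. In batch 2 HE replicate 4 had the pattern of the HE mice of batch 3, and HE replicate 5 had that of the WT mice.

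**Figure D2:**
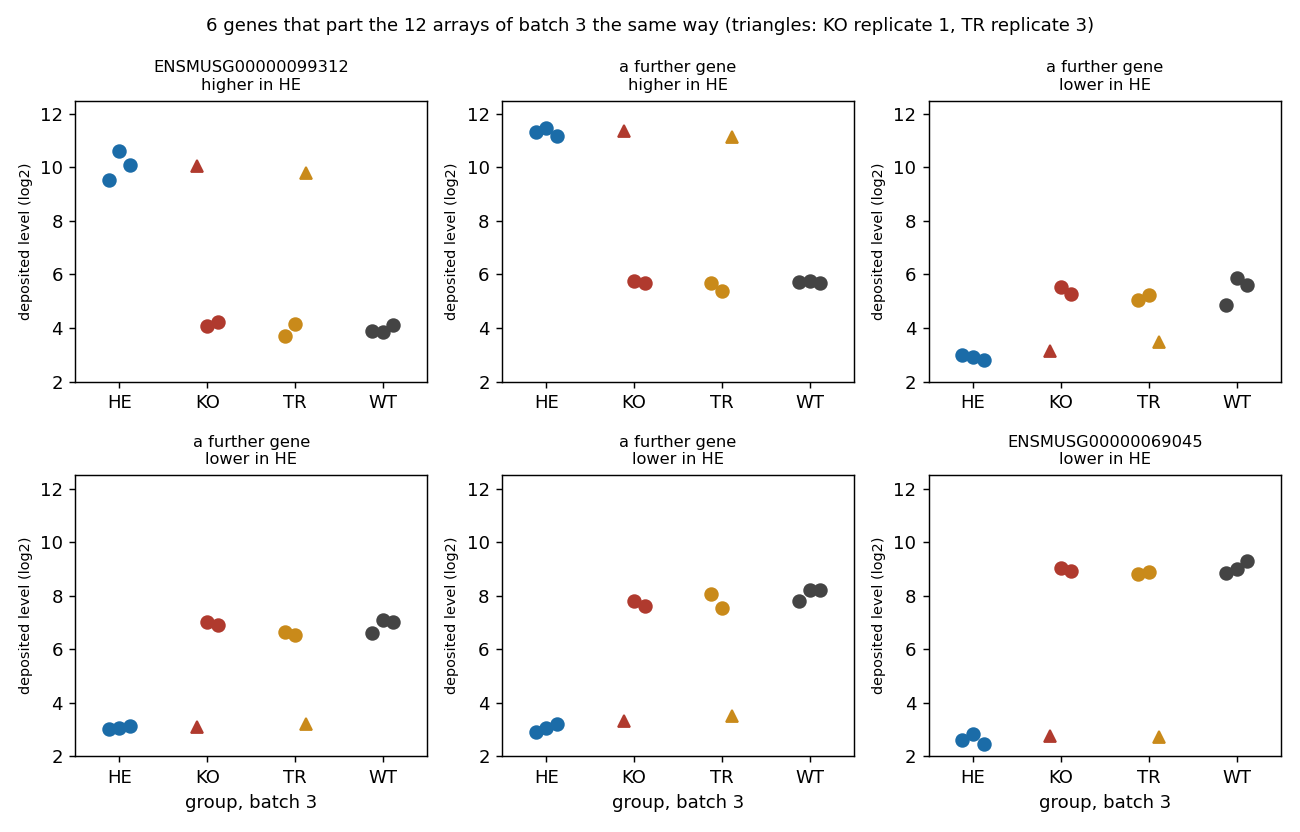
Deposited log2 level (y axis) of the 6 genes that separated HE from WT by at least 1 log2 unit besides ENSMUSG00000019987, by group in batch 3 (x axis); points are mice, and triangles mark KO replicate 1 and TR replicate 3. HE mice stand on 1 side and WT mice on the other in each panel, and the triangles lie with the HE mice.

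All 3 HE mice of batch 3 are therefore of 1 kind by these genes and all 3 WT mice of the other. Whatever property of the animals the 6 genes follow cannot be told apart from the Arg1 genotype in this comparison, and this touches each difference between HE and WT given here. The labels do not give the sex of the mice, and whether the 6 genes follow it was not tested, since no ID could be paired with a name or a chromosome. The levels of ENSMUSG00000019987 in the other arrays are given beside the divide for this reason. The 4 KO and TR mice that resembled WT in the 6 genes had 6.87 to 7.40 log2 of it, and the 2 that resembled HE had 6.98 and 7.45 log2. WT replicate 5 of batch 1 resembled the HE mice in the 6 genes and had 4.39 log2 of ENSMUSG00000019987, close to the other WT mice of that batch. Those had 3.82 and 4.26 log2. In batch 2 HE replicate 4, with the pattern of the HE mice of batch 3, had 6.37 log2 of it. HE replicate 5 of batch 2, with the pattern of the WT mice, had 6.42 log2. With the level of ENSMUSG00000069045 as a covariate, an alternative chosen after seeing the data, ENSMUSG00000019987 differed by 2.38 log2 between HE and WT, at a limma adjusted p of 0.0298. In that fit the covariate takes separate ranges in HE and WT, so its slope comes mainly from the KO and TR mice.

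The number of genes called depended on which arrays set the spread. In the model of all 12 arrays 1 of 18057 genes was called at an adjusted p under 0.05, which is 0.00554%. Before adjustment 543 genes (3.01%) had a limma p under 0.05. In a model of the 6 HE and WT arrays alone 9 genes (0.0498%) were called, 4 higher and 5 lower in HE, and 691 genes (3.83%) had p under 0.05 before adjustment. The 9 were ENSMUSG00000019987, the 6 genes of the divide and 2 others. The KO and TR groups hold both levels of the 6 genes, with SDs of 0.961 to 3.58 log2 there and of 0.0340 to 0.540 log2 within HE and WT. The SE of their HE minus WT differences was accordingly 0.530 to 1.54 log2 over 12 arrays and 0.0828 to 0.206 log2 over 6.

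For ENSMUSG00000099312 the limma adjusted p (Benjamini-Hochberg) was 0.99996 over 12 arrays and 7.10e-09 over 6. For ENSMUSG00000069045 it was 0.99996 over 12 arrays and 1.13e-10 over 6. The 2 other genes called over 6 arrays differed by much less. One averaged 10.69 log2 in HE and 10.20 log2 in WT, a difference of 0.50 log2 with a limma adjusted p of 0.0100, and its KO and TR arrays followed the divide. The other averaged 6.33 log2 in HE and 7.07 log2 in WT, a difference of -0.74 log2 with a limma adjusted p of 0.0405, and its KO and TR arrays did not. Both had an adjusted p of 0.99996 over 12 arrays.

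**Figure D3:**
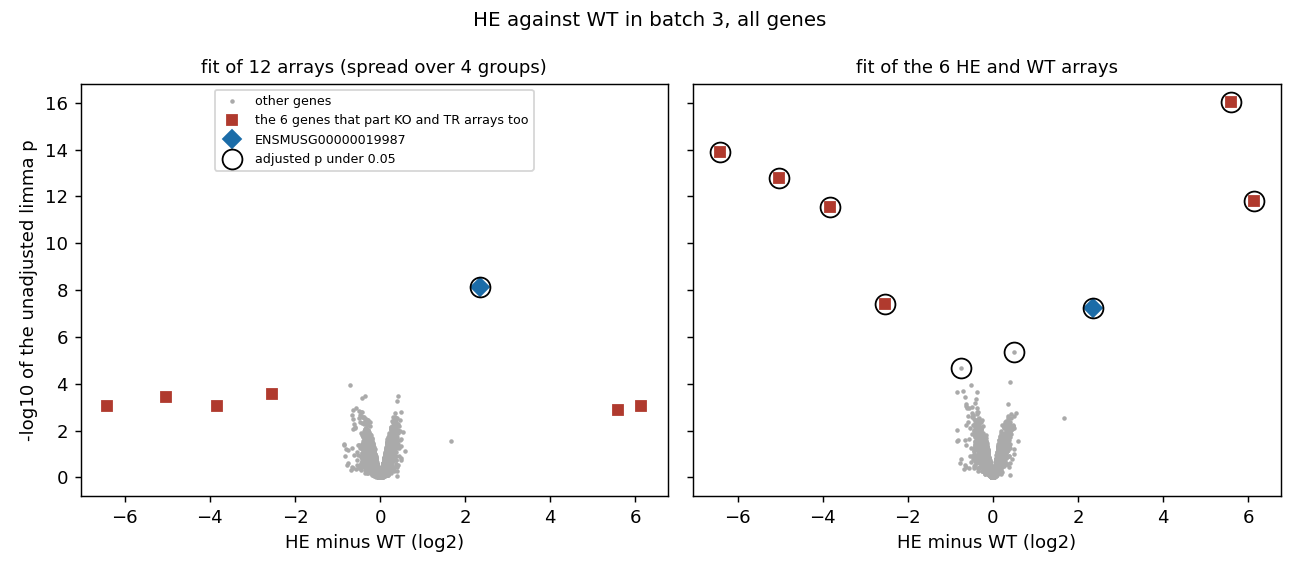
HE minus WT difference of all 18057 genes (x axis, log2) against the -log10 of the unadjusted limma p (y axis), from the model of 12 arrays and from the model of the 6 HE and WT arrays; circles mark adjusted p under 0.05. The 6 genes of the divide (squares) have the same differences in both panels and are called only in the model of 6 arrays, and ENSMUSG00000019987 (diamond) is called in both.

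Apart from these genes HE and WT frontal lobes lay close together. Leaving out the 7 genes with a wide gap, the median absolute difference over 18050 genes was 0.066 log2, and 99% of them differed by less than 0.35 log2. At least 0.5 log2 separated the means of 31 of these genes, and 1 log2 those of 1 gene. The share of genes higher in HE was 49.4%. The comparison was fairly precise for single genes, with a median half-width of the 95% interval of 0.235 log2. That interval lay within ±1 log2 for 17932 of all 18057 genes (99.3%) and within ±0.5 log2 for 16457 (91.1%). By level, from the lowest to the highest of 4 equal classes of genes, the interval stayed within ±0.5 log2 for 89.3%, 84.5%, 93.5% and 97.3% of the genes. These intervals are not adjusted for the number of genes.

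All 3 HE mice lay above all 3 WT mice for 800 genes (4.43%) and below them for 842 genes (4.66%). The naming rule took from these the 10 largest differences each way among genes above the median level. Among the 10 higher in HE, ENSMUSG00000099312 and a further gene of the divide came first, and the other 8 differed by 0.33 to 0.55 log2. The 10 lower ones differed by -0.65 to -0.38 log2. ENSMUSG00000024766 led the lower genes, with 7.08, 6.65 and 6.57 log2 in HE, against 7.53, 7.41 and 7.30 log2 in WT. Its difference was -0.65 ± 0.174 log2 (SE), at a limma adjusted p of 0.99996 over 12 arrays and 0.430 over 6. In KO it read 7.60, 6.88 and 7.58 log2 and in TR 7.41, 7.26 and 7.34 log2, so KO replicate 2 lay within the HE range and every TR mouse above it.

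The ranked genes were also read in the KO and TR mice. Of the 10 ranked genes higher in HE, 2 belong to the divide, and 3 of the other 8 also had KO replicate 1 above the other KO mice and TR replicate 3 above the other TR mice. Of all 800 genes with HE above WT, 85 (10.6%) had that order, against 2160 of all 18057 genes (12%). Of the 10 ranked genes lower in HE, 0 had the matching order downward, against 95 of all 842 (11.3%) and 2420 of all 18057 genes (13.4%). These shares are descriptions, and the ranked genes were not tested as a list.

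Distances between arrays of different genotype overlapped with those between arrays of the same genotype. The root mean square distance over all genes was 0.185 to 0.221 log2 between HE mice, 0.198 to 0.249 log2 between WT mice and 0.209 to 0.270 log2 between an HE and a WT mouse. The mean distance between groups exceeded that within groups by 0.0158 log2, with a one-sided exact permutation p of 0.1 over 20 arrangements, the smallest possible. Without the 7 genes of wide gap, which were picked because they separate the groups, the excess was -0.0048 log2.

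Several genes varied widely between mice of the same genotype. Over the 6 arrays 25 genes spanned at least 2 log2 units, and HE and WT overlapped in 18 of them. The 7 that did not overlap were ENSMUSG00000019987 and the 6 genes of the divide. The gene with the widest span within a group had 11.60, 9.29 and 6.23 log2 in the HE mice, against 4.05, 11.50 and 10.38 log2 in the WT mice. Its level was thus low in HE replicate 3 and WT replicate 1, and it followed neither the genotype nor the divide.

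Genes that changed in full knockouts of another batch were read in the HE mice next. Within batch 1, which shares no array with batch 3, 406 genes (2.25%) were called higher and 507 (2.81%) lower in KO than in WT. The KO and WT mice of batch 1 are matched by age, at days 13, 14 and 15. The model behind these calls held group alone, so age and this matching were left out of it. ENSMUSG00000019987 is among the 406 higher genes and is left out here. The other 405 had a median of 0.54 log2 for KO minus WT in batch 1 and of 0.0078 log2 for HE minus WT in batch 3. Among the 507 lower genes these medians stood at -0.50 and -0.021 log2, and over all genes HE minus WT had a median of -0.0015 log2. In limma 0 of the 912 genes were called between HE and WT over 12 arrays or over 6. Before adjustment 9 of them (0.987%) had a limma p under 0.05 over 12 arrays, against 3.01% of all genes. The spread over 12 arrays includes the KO and TR mice, and whether it is wider for these genes was not tested. The lower share is therefore not read as a trait of these genes in HE mice. HE lay above WT without overlap for 21 of the 405 (5.19%, against 4.43% of all genes) and below WT for 16 of the 507 (3.16%, against 4.66%).

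The 95% interval of HE minus WT excluded the KO minus WT difference of batch 1 for 390 of the 405 higher genes (96.3%) and for 468 of the 507 lower genes (92.3%). Genes chosen for a large difference in batch 1 overstate it on average, and mice of batch 1 were 13 to 15 days old. HE minus WT had the sign of KO minus WT for 216 of the 405 (53.3%, where 49.4% of all genes were higher in HE) and for 294 of the 507 (58.0%, where 50.6% were lower). In batch 1 KO replicates 4 and 6 and WT replicate 5 carried the pattern of the HE mice of batch 3 in the 6 genes. KO replicate 5 and WT replicates 4 and 6 carried the opposite one. The divide thus leaned the same way in KO against WT as in HE against WT, and its part in these shares was not tested. Within batch 3 itself KO differed from HE in 109 genes (0.604%) at a limma adjusted p under 0.05, 63 higher and 46 lower in KO. TR differed from HE in 0 genes at that threshold. Sample titles of the KO mice of batch 3 begin with BB or CC, and those of its HE, WT and TR mice with EE. Whatever these letters stand for cannot be told apart from genotype in the KO and HE comparison. The divide is also uneven in the comparisons of KO and of TR with HE. All HE mice of batch 3 lie on the same side of it, and 2 KO and 2 TR mice on the other.

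**Figure D4:**
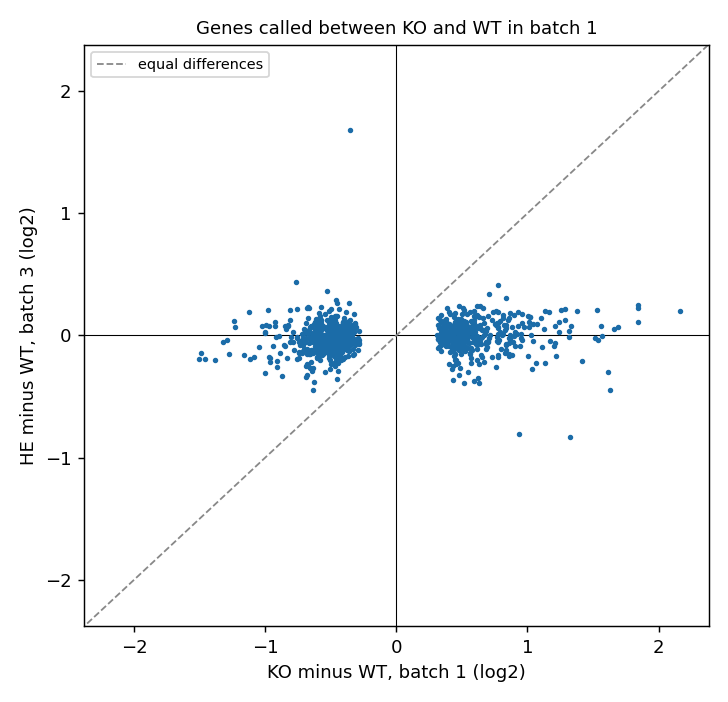
Each point is 1 of the 912 genes called between KO and WT in batch 1, with KO minus WT in batch 1 (x axis, log2) against HE minus WT in batch 3 (y axis, log2); the dashed line marks equal differences. The points spread along the horizontal axis and mostly stay near 0 on the vertical one, with medians of 0.0078 log2 for the higher and -0.021 log2 for the lower genes; the highest point, at 1.68 log2 for HE minus WT, is a gene with HE and WT arrays that overlap.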

How the data were processed

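Total RNA of the frontal lobe was amplified from an oligo(dT) primer and hybridised to Affymetrix arrays, per the labels' protocols. The deposited values are log2 levels, 1 per Ensembl gene and array, made with affy and RMA per the submitters' processing notes, with versions and the probe map not given in the sources used here. Over all genes the lowest and highest batch means of a gene differed by a median of 0.028 log2, while each batch holds other groups, so levels are compared within a batch only. All 18057 genes were fitted with limma 3.58.1 in R 4.3.3, with group means over the 12 arrays of batch 3, an intensity trend and no filter (8 residual and 6.37 prior degrees of freedom). Two-sided tests were used, with Benjamini-Hochberg adjustment over all genes and calls under 0.05. The fitting was tested on simulated data. Alternatives took the 6 arrays of the comparison alone, the whole series with a fixed or random batch effect, no trend, renewed quantile normalization, median centring, only the brighter genes, array weights, and 1 array left out at a time. The rule for named genes took Arg1, all called genes, and the 10 largest differences each way among genes above the median level whose groups did not overlap; at most 2 IDs each way are printed. The parts of the rule on Arg1, its neighbours, sex-linked and other listed genes could not be applied without gene names, and so the planned lists gave no result. The comparison and these lists were chosen with earlier results of these data known. Replicates are numbered in deposition order.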

Additional observations from a re-analysis of the deposited data

Results flagged for a closer look

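Outliers were sought in 8 sets, 4 genes in the 6 HE and in the 6 WT arrays of both batches, and 4 sets were flagged. The usual chance rate of about 1 in 20 is no measure for this count. ENSMUSG00000099312 and ENSMUSG00000069045 were picked after their switch between a high and a low level was seen, so flags on them were foreseeable. The sets also pool arrays of different batches. For ENSMUSG00000069045 the array farthest from the rest was HE replicate 5 of batch 2 at 8.93 log2, with a gap of 0.912 of the range over the HE arrays. Among the WT arrays it was WT replicate 5 of batch 1 at 3.79 log2, with a gap of 0.749 of the range. For ENSMUSG00000099312 WT replicate 5 stood apart too, at 9.60 log2 with a gap of 0.707 of the range. For ENSMUSG00000024766 the same array was the lowest of the WT arrays, at 6.84 log2 with a gap of 0.666 of the range.

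A signal also appeared in arrays outside the comparison. ENSMUSG00000019987 averaged 6.37 ± 0.042 log2 in the 3 HE arrays of batch 2 (SD, n = 3), at days 13 to 15. Each of them lay above every WT array of the series, of which the highest read 4.80 log2. Batch 2 holds no WT array, so this sets side by side levels of different batches, which are not directly comparable.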

How the results depend on the processing

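ENSMUSG00000019987 kept its direction and its call under all 15 alternatives in which it was tested, with differences of 2.15 to 2.58 log2 and limma adjusted p of 4.52e-09 to 0.0298; leaving out 1 array at a time gave 2.15 to 2.58 log2. The count of called genes was 1 under the main settings, and 1 under each of the 6 settings that left out an array. It was 9 when the 6 arrays of the comparison were fitted alone, and 5 when batch entered as a random block over all 24 arrays, with none of the 6 genes of the divide among the 5. It was 0 in limma when only genes above the median mean were tested (148 with p under 0.05 before adjustment), a setting that leaves ENSMUSG00000019987 out. It was 1 under the remaining alternatives, including both fits with ENSMUSG00000069045 as a covariate, which were chosen after seeing the data. ENSMUSG00000024766 kept its sign and stayed uncalled, at -0.85 to -0.15 log2 over its alternatives. No paired analysis was possible because nothing in the labels ties an HE mouse of batch 3 to a WT mouse. The random block compares levels across batches, where the deposited batch means are nearly equal. With 3 arrays a group and 18057 genes, differences well above the median interval half-width of 0.235 log2 can be missed. That interval is not adjusted for the number of genes, and the -0.65 log2 of ENSMUSG00000024766 under the main settings was not called.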

Other observations

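One HE array of batch 2, replicate 6 at day 15, fitted neither pattern of the 6 genes. It was at the low level in all of them, with 4.82 log2 of ENSMUSG00000099312 and 2.25 log2 of ENSMUSG00000069045. HE replicate 4 of that batch had 12.19 log2 of ENSMUSG00000099312, and HE replicate 5 had 8.93 log2 of ENSMUSG00000069045. Of the 24 arrays in the series, the other 23 had either both genes of the first kind high and all 4 of the second kind low, or the reverse.

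The 6 genes also show how levels differ between batches. The lowest array of ENSMUSG00000099312 read 1.85 log2 in batch 1, 4.47 log2 in batch 2 and 3.70 log2 in batch 3, and the highest read 10.10, 12.19 and 10.63 log2. The batch means were nearer to each other, at 5.93, 7.14 and 6.51 log2. Batch 2 held 2 arrays at the high level of this gene and the other batches 3 of 6 and 5 of 12.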
